A study of Mus musculus and Rattus norvegicus with 36 samples.

Results

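The transcripts that supply cells with glutathione were followed across every diet of the series: the cystine importer Slc7a11, the synthesis enzymes Gclc, Gclm and Gss, the recycling genes Gsr and Glrx, the NADPH suppliers G6pdx and Pgd, and Ggt1, which breaks glutathione down outside the cell. All probe sets whose annotation carries one of these symbols alone were taken, which gave 16 probe sets for 7 genes among 45037 on the mouse array and 10 probe sets for 8 genes among 31042 on the rat array. G6pdx is not listed in the annotation used here and was not analysed, nor was Ggt1 in the mouse. The arrays came from male weanling mice of a colony with mainly a C57 black background and from male weanling Holtzman rats, and all animals ate a torula-yeast basal diet with added vitamin E and methionine, with or without selenium (Se) as sodium selenite. Mice ate the Se-deficient basal diet, or this diet with Se at 0.05 μg/g or at 0.2 μg/g, for 35 days, and liver and kidney were arrayed. Rats ate the Se-deficient diet or 1 of 5 supplemented diets for 28 days, with Se at 0.08 or 0.24, at 0.8, and at 2 or 5 μg/g, and liver was arrayed. Each diet and tissue had 3 arrays. The Se-adequate reference was 0.2 μg Se/g in mice and 0.24 μg Se/g in rats.

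Glutathione is a tripeptide of glutamate, cysteine and glycine, and its synthesis is limited by the supply of cysteine and by glutamate-cysteine ligase. It is the electron donor of the Se-dependent glutathione peroxidases, whose oxidized product, glutathione disulfide, is returned to glutathione with NADPH. Several genes of the pathway are known targets of the transcription factor Nrf2, which acts through antioxidant response elements, and Slc7a11 is also a known target of the amino acid response factor Atf4. A level below is the deposited log2 signal of a probe set, and a change is a difference of mean levels, with its standard error (SE) from limma. Calls rest on a p adjusted by the Benjamini-Hochberg method across the whole array, with a threshold of 0.05. A gene with more than 1 probe set is represented by its brightest one in that tissue.

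Hepatocyte marker genes averaged 14.06 to 14.19 on the mouse liver arrays and kidney markers 6.22 to 6.60 there, against 7.95 to 9.01 and 12.56 to 12.84 on the kidney arrays, so that each tissue was richest in its own markers. In rat liver the hepatocyte markers averaged 13.41 to 13.72. The array of replicate 1 at 2 μg Se/g was the least like the others of its study, with a mean correlation over all probe sets of 0.971 with the arrays of other diets, where the remaining arrays had 0.982 to 0.992. Replicate 3 at 2 μg Se/g was less like its own diet (0.98) than like the other diets (0.992). Replicate 1 had 0.981 with its own diet. Rats at 0.24, 2 and 5 μg Se/g and in Se deficiency were one study, and those fed 0.08 μg Se/g or 0.8 μg Se/g another. According to the study's methods the arrays of each were processed separately. The authors also compared 0.8 with 0.24 μg Se/g, a contrast between these studies. Levels are compared here within a study only.

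Slc7a11, the light chain of the cystine-glutamate antiporter, was the one member called in any comparison when each study and tissue was fitted alone. The fit with all rat arrays, which gave the study's own number of calls at 5 μg Se/g, also called Ggt1 there. Against 2 μg Se/g that fit called Gss too. Slc7a11 rose at 5 μg Se/g. In rat liver its level was 6.21, 7.11 and 7.09 at 5 μg Se/g and 4.06, 4.45 and 4.50 on the Se-adequate diet. It was 4.48, 4.56 and 4.67 at 2 μg Se/g and 4.41, 4.74 and 4.74 in Se deficiency. The 3 arrays at 5 μg Se/g lay above all others of the study, and the other diets overlapped each other. Against 0.24 μg Se/g the change was 2.46 (SE 0.22, adjusted p = 0.00037). The reference level stood on average at percentile 18.1 of all probe sets on its array and no detection call was used here, so the change is given on the log2 scale of the deposited values only. The change was 2.17 against Se deficiency (SE 0.22, adjusted p = 0.00062) and 2.23 against 2 μg Se/g (SE 0.22, adjusted p = 0.001), and these 3 comparisons share the arrays at 5 μg Se/g. With the arrays at 5 and 2 μg Se/g alone in the fit, their difference was of the same size and was not called (adjusted p = 0.071). Of all probe sets, 2.82% were called at 5 against 0.24 μg Se/g, 2.31% against Se deficiency and 3.34% against 2 μg Se/g. In the other rat study the level was 4.36 to 4.53 at 0.08 μg Se/g and 4.22 to 4.52 at 0.8 μg Se/g. On all arrays of the other diets, and on replicate 1 at 5 μg Se/g, the level was below the array median, which was 6.24 to 6.29. Markers of other liver cells also differed between 5 and 0.24 μg Se/g. Of 7 stellate cell and fibroblast markers 4 were called higher, Col1a1 (1.62), Col1a2 (1.2), Des (0.93) and Acta2 (0.90), and 1 lower, Lrat (−2.11), and the list averaged 8.42 to 8.87 on the arrays at 5 μg Se/g against 8.08 to 8.55. Of 4 endothelial markers Pecam1 (0.92) and Tek (0.62) were called higher, with list means of 9.59 to 9.74 against 9.29 to 9.61. The others, Kdr (−0.30) and Stab2 (−0.35), had lower means and were not called. Of 5 macrophage markers Clec4f (−1.78) was called lower, with list means of 8.55 to 8.81 against 8.97 to 9.17. Adgre1 (0.00), Cd68 (0.03), Csf1r (−0.20) and Cd163 (−0.24) were not called. The part of these cells in the Slc7a11 result was not tested, and in whole liver more cells of a type and more RNA per cell cannot be told apart. The study lists Slc7a11 among Nrf2 targets changed at 5 μg Se/g. There it lacks the mark for genes left once those of general toxicity or calorie restriction were taken out. Slower growth and liver damage came with this diet, and their part in the Slc7a11 result was not tested.

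The RefSeq promoter table used here holds 12 mouse promoters of 7 members, each from 250 bases before to 50 bases after the annotated start, and none of the rat. It was searched on both strands for TGACNNNGC, the core of the antioxidant response element, and for TGATGNAA, the C/EBP-ATF response element, which Atf4 binds together with C/EBP factors. The first occurred in 12.4% of the 32851 promoters in the table and the second in 4.0%. The mouse Slc7a11 promoter is shown because Slc7a11 is the member that changed. It lies at chr3:50443564-50443863 of GRCm38.p6, on the minus strand, and is printed 5′ to 3′ with matches in capitals.
Slc7a11: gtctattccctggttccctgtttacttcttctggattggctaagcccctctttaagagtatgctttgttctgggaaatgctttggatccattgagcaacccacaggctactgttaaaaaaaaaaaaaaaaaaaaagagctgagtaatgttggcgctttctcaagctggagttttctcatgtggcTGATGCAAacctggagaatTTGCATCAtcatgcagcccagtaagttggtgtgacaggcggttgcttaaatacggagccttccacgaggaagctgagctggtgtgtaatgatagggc
Both runs of capitals match the C/EBP-ATF response element, at positions −66 to −59 and, on the opposite strand, −47 to −40, with the annotated start base as 0. No antioxidant response element core occurs in this window, and Slc7a11 was the only member with a C/EBP-ATF match. A match is a description of letters, and the expression data of this gene in the mouse, whose promoter this is, come from low signals only.

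**Figure D1:**
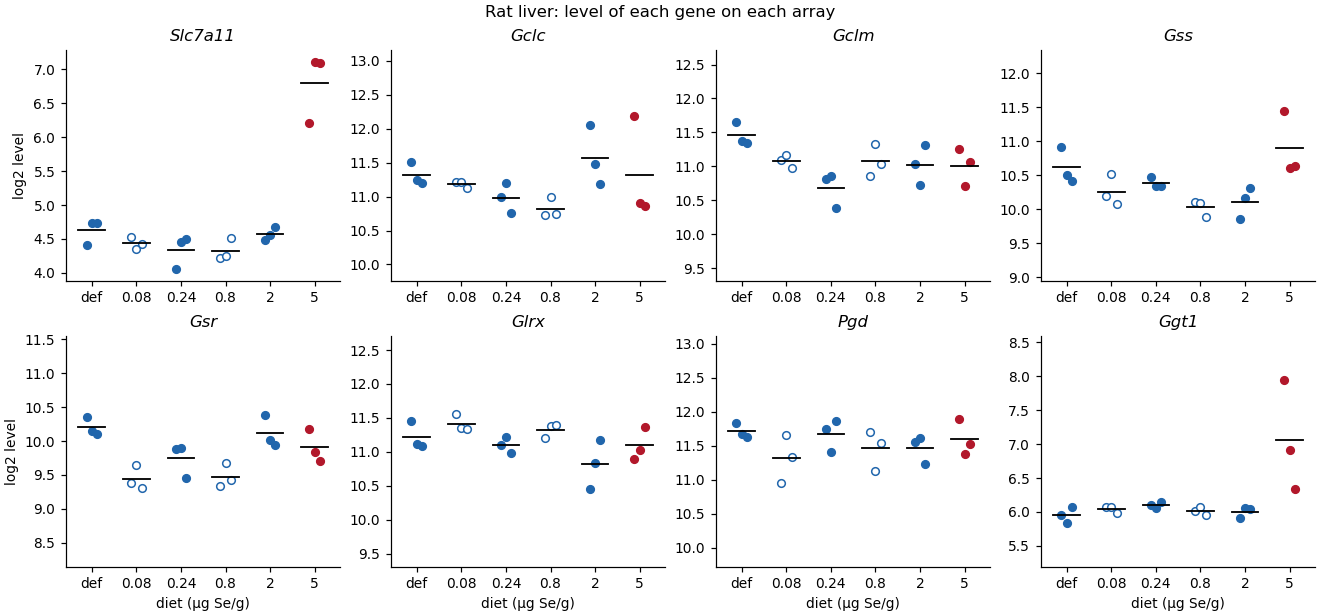
Level (deposited log2 signal) of each of the 8 genes on each rat liver array by diet (μg Se/g; def, Se-deficient), with every panel spanning the same 3.4 log2 units. Circles are arrays, lines are means of 3, red marks 5 μg Se/g and open circles the separately processed study (diets 0.08 and 0.8); Slc7a11 lies between 6.21 and 7.11 at 5 μg Se/g and at or below 4.74 elsewhere.

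Ggt1 and Gss were higher at 5 μg Se/g by smaller amounts that did not pass the test with their study fitted alone. Ggt1, the cell-surface enzyme that starts the breakdown of glutathione, was at 7.95, 6.91 and 6.34 at 5 μg Se/g and at 6.10, 6.06 and 6.15 at 0.24 μg Se/g. The groups did not overlap, and the arrays at 5 μg Se/g spread over more than the whole range of the other diets, 5.84 to 6.15. The change was 0.96 (SE 0.29, adjusted p = 0.12) against 0.24 μg Se/g, 1.11 (SE 0.29, adjusted p = 0.083) against Se deficiency and 1.06 (SE 0.29, adjusted p = 0.071) against 2 μg Se/g. Without replicate 3 at 5 μg Se/g, the lowest of that group, Ggt1 passed the test in all 3 comparisons, with an adjusted p of 0.011, 0.0061 and 0.0082 and a change of 1.32, 1.47 and 1.42, while without replicate 1 at 5 μg Se/g the changes were 0.52, 0.67 and 0.62. In all 3 comparisons it also passed with array weights and with all rat arrays in one limma fit (adjusted p = 0.041, 0.02 and 0.02). Ggt1 is known to be expressed by bile duct cells, and the mean of 5 bile duct and progenitor markers ranged from 6.37 to 7.29 on the arrays at 5 μg Se/g and from 5.68 to 6.56 at 0.24 μg Se/g, with 5 of 5 means higher and 1 called, Krt19 (2.63, SE 0.32, adjusted p = 0.0018). Epcam (0.78, SE 0.99), Cldn7 (0.75, SE 0.46), Krt7 (0.17, SE 0.17) and Spp1 (0.11, SE 0.27) were not called. The part of bile duct cells in the Ggt1 result was not tested.

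Gss, glutathione synthetase, was at 11.44, 10.61 and 10.64 at 5 μg Se/g, at 10.47, 10.34 and 10.34 at 0.24 μg Se/g and at 9.85, 10.16 and 10.31 at 2 μg Se/g. The arrays at 5 μg Se/g were higher than those of both other diets without overlap, and overlapped Se deficiency, at 10.92, 10.50 and 10.42. The change was 0.51 (SE 0.21, adjusted p = 0.29) against 0.24 μg Se/g and 0.79 (SE 0.21, adjusted p = 0.068) against 2 μg Se/g. Against 2 μg Se/g it passed with all rat arrays in one fit (adjusted p = 0.027), with array weights (0.00076) and without replicate 3 at 2 μg Se/g (0.016). Without replicate 1 at 5 μg Se/g, the highest of that group, the change was 0.24 against 0.24 μg Se/g and 0.52 against 2 μg Se/g. Slc7a11, Ggt1 and Gss made up the 3 of 10 member probe sets that were higher at 5 than at 0.24 μg Se/g without overlap, where 11.1% of all probe sets were. The median change of the 10 was 0.28, against −0.03 over all probe sets, and 1 was called.

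Neither subunit of glutamate-cysteine ligase was called at 5 μg Se/g. Gclc, the catalytic subunit, was at 12.19, 10.90 and 10.86 at 5 μg Se/g and at 10.99, 11.20 and 10.76 at 0.24 μg Se/g, so that one array was high and the others lay within the reference range. The change was 0.33 (SE 0.32, 95% interval −0.37 to 1.03), and without replicate 1 at 5 μg Se/g it was −0.10, while the dimmer Gclc probe set changed by 0.24 (SE 0.38). The same array was the highest of its group for Gss and Ggt1 and the lowest for Slc7a11. Gclm, the modifier subunit, changed by 0.32 (SE 0.19, interval −0.09 to 0.74). Gsr, glutathione reductase, changed by 0.17 (SE 0.17, interval −0.20 to 0.53), and Glrx, which removes glutathione bound to protein thiols, by 0.00 (SE 0.18, interval −0.39 to 0.40) and by 0.06 (SE 0.17) at its dimmer probe set. Pgd, the second NADPH-producing enzyme of the pentose phosphate pathway, changed by −0.07 (SE 0.16, interval −0.43 to 0.28).

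**Figure D2:**
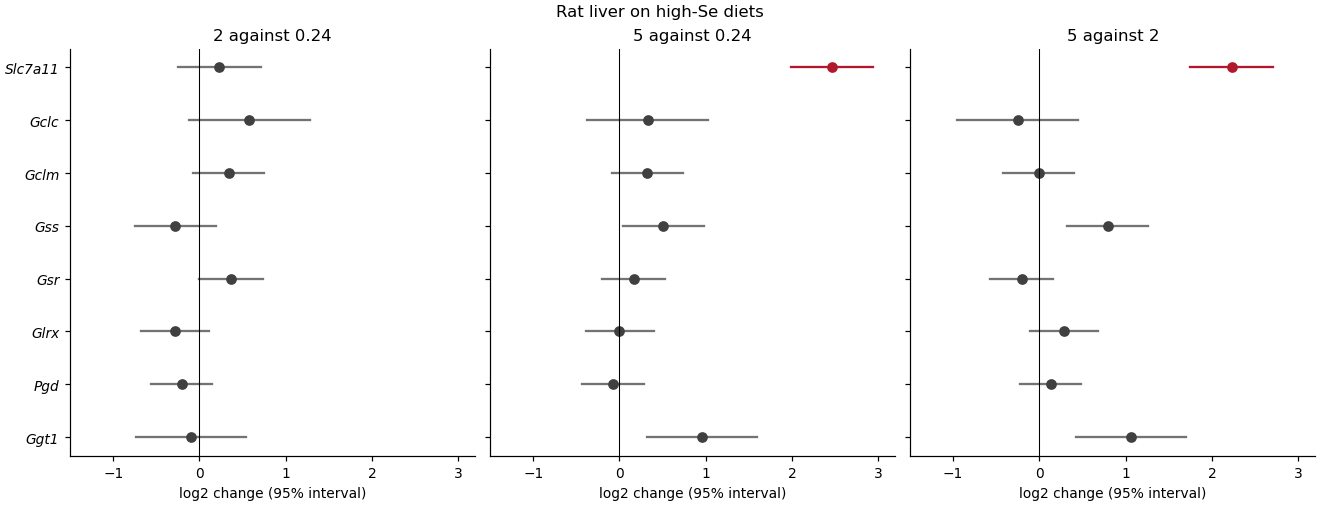
Change in log2 level (x axis) with its 95% interval from limma for 8 genes (y axis) in rat liver between high-Se diets and 0.24 μg Se/g and between 5 and 2 μg Se/g (diets in μg Se/g, n = 3 arrays a diet). Red marks a called change; only Slc7a11 is red, at 2.46 and 2.23 in the comparisons with 5 μg Se/g.

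At 2 μg Se/g none of the 10 member probe sets was called in limma, and 0.00322% of all probe sets were. An unadjusted p under 0.05 was found for 1 of the 10 and for 15.3% of all probe sets. Without replicate 3 at 2 μg Se/g the calls over all probe sets went from 1 to 5800 and those among the members stayed at 0. The changes against 0.24 μg Se/g were 0.58 for Gclc (SE 0.32, adjusted p = 0.37), 0.37 for Gsr (SE 0.17, adjusted p = 0.33) and 0.34 for Gclm (SE 0.19, adjusted p = 0.37), which was −0.07 with array weights. The dimmer probe sets of Gclc and Glrx had 0.58 and −0.19. Gclc was at 12.05 on replicate 1, the array least like the others, and at 11.48 and 11.18 on the others, and without that array its change was 0.34. Slc7a11 differed by 0.23 (SE 0.22, interval −0.25 to 0.71), Pgd by −0.20, Glrx and Gss both by −0.28, and Ggt1 by −0.10. Gclm fell by 0.45 from Se deficiency to 5 μg Se/g without passing the test (SE 0.19, adjusted p = 0.35). In the other rat study, between 0.8 and 0.08 μg Se/g, 0% of all probe sets and none of the members were called, and 3 member probe sets, against 4.58% of all, had an unadjusted p under 0.05. Both Gclc probe sets were among them, at −0.36 (SE 0.11, adjusted p = 0.97) and −0.30 (SE 0.12, adjusted p = 0.97), with 10.73, 11.00 and 10.74 at 0.8 μg Se/g and 11.22, 11.21 and 11.12 at 0.08 μg Se/g for the brighter one.

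In Se-deficient rat liver no member was called against 0.24 μg Se/g, where 0.00322% of all probe sets were, and 2 of the 10 probe sets had an unadjusted p under 0.05, against 3.4% of all. The largest difference was that of Gclm, with 11.65, 11.37 and 11.35 on the Se-deficient arrays and 10.82, 10.86 and 10.38 on the Se-adequate ones. The groups did not overlap, and the change was 0.77 (SE 0.19, interval 0.36 to 1.18, unadjusted p = 0.0016, adjusted p = 1). Gsr followed with 10.36, 10.15 and 10.10 against 9.88, 9.90 and 9.45, a change of 0.46 (SE 0.17, unadjusted p = 0.018, adjusted p = 1). Gclc differed by 0.34 (SE 0.32) and 0.35 (SE 0.38), Slc7a11 by 0.30 (SE 0.22), Gss by 0.23 (SE 0.21), Glrx by 0.12 (SE 0.18) and 0.23 (SE 0.17), Pgd by 0.04 (SE 0.16) and Ggt1 by −0.15 (SE 0.29). Of the 10 probe sets, 9 had a higher mean in Se deficiency, and 4 were higher without overlap, of Gclm, Gsr, Gclc and Glrx, against 5.75% of all probe sets. For Gclc, at its brighter probe set, the lowest Se-deficient and the highest Se-adequate level both round to 11.2. For Glrx, at its dimmer one, these levels were 10.42 and 10.40. The median change of the 10 was 0.26, against −0.01 over all probe sets.

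The mouse promoter of Gclm is shown for its antioxidant response element core, at chr3:122245307-122245606 of GRCm38.p6 on the plus strand, with the match in capitals.
Gclm: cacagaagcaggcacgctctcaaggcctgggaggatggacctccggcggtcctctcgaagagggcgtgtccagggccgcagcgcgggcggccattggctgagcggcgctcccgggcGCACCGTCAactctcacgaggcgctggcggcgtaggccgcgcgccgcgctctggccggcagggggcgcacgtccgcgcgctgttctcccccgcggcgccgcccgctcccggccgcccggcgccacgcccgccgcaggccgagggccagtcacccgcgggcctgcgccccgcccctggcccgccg
The match stands at positions −134 to −126 and reads on the opposite strand. Such a core was found in the promoters of 4 of the 7 members in the table, beside Gclm in those of Ggt1 and Pgd at some of their starts and of G6pdx, and not in those of Slc7a11, Gss and Glrx. This count is by gene over any of 12 promoters, while the share of 12.4% over the whole table is by promoter, so they do not compare. The Pgd match, at positions 3 to 11, and a Ggt1 match, at 41 to 49, lie after the annotated start. Gclc and Gsr have no entry in the table.

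In mouse liver the synthesis and recycling genes were higher in Se deficiency by small amounts, and none passed the test. On the Se-deficient arrays Gclc was at 13.31, 13.29 and 13.32, with 13.07, 12.92 and 12.94 at 0.05 μg Se/g and 13.15, 12.87 and 12.77 at 0.2 μg Se/g. The Se-deficient arrays lay above those of both other diets, which overlapped. The change against 0.2 μg Se/g was 0.38 (SE 0.10, unadjusted p = 0.0027, adjusted p = 0.93), and the dimmer Gclc probe set had 0.51 (SE 0.09, unadjusted p = 0.00026, adjusted p = 0.38). Against 0.05 μg Se/g they were 0.33 (SE 0.10, adjusted p = 0.49) and 0.43 (SE 0.09, adjusted p = 0.33), with the Se-deficient arrays shared between the comparisons.

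Gsr was at 10.57, 10.29 and 10.55 in Se-deficient mouse liver and at 10.23, 10.23 and 10.08 at 0.2 μg Se/g. The groups did not overlap, and the change was 0.29 (SE 0.09, adjusted p = 0.93), with 0.37 (SE 0.09, adjusted p = 0.93) at the dimmer probe set. Pgd was at 10.62, 10.71 and 10.55 against 10.30, 10.31 and 10.21, a change of 0.35 (SE 0.13, adjusted p = 0.93), and its other 3 probe sets differed by 0.21 to 0.30. Gss differed by 0.19 (SE 0.13), Gclm by 0.17 (SE 0.13) and Glrx by 0.12 (SE 0.07), and their dimmer probe sets by 0.22 (SE 0.07), 0.18 (SE 0.17) and 0.08 (SE 0.08). Slc7a11 had −0.04 (SE 0.11) and −0.22 (SE 0.11) at its pair of probe sets, both at low levels, of 4.46 to 4.86 and 3.51 to 3.77 at 0.2 μg Se/g. In mouse liver 10 of 16 member probe sets were higher in Se deficiency than at 0.2 μg Se/g without overlap, against 3.45% of all probe sets, and 12 of 16 than at 0.05 μg Se/g, against 5.61%. Lower without overlap than at 0.2 μg Se/g was 1 of 16, the dimmer Slc7a11 probe set (3.37 to 3.45 in Se deficiency), against 4.15% of all probe sets. Compared with 0.05 μg Se/g it was 0 of 16, against 6.56%. The 16 are not independent, since they represent 7 genes. Their median change was 0.21 against 0.2 μg Se/g and 0.27 against 0.05 μg Se/g, with −0.02 and −0.03 over all probe sets. In limma none of the 16 was called in either comparison, where 0.0222% and 0.0377% of all probe sets were, and 8 and 11 of the 16 had an unadjusted p under 0.05, against 4.63% and 8.76% of all probe sets.

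**Figure D3:**
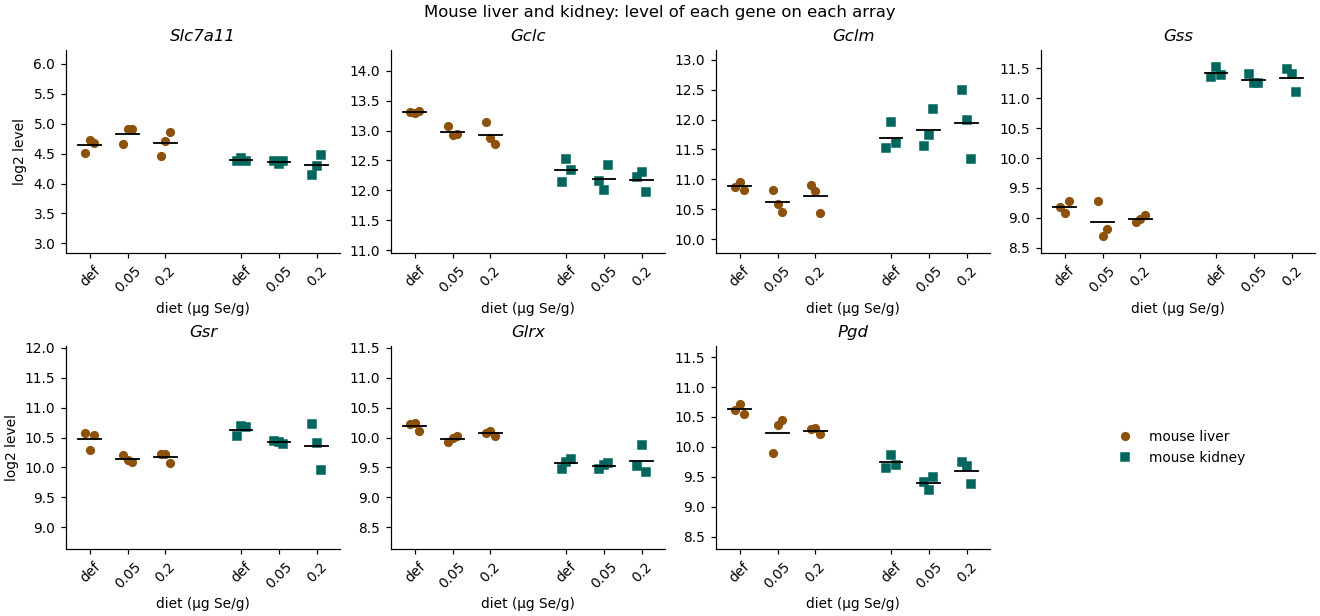
Level (deposited log2 signal) of 7 genes on each mouse array by diet (μg Se/g; def, Se-deficient), with 1 probe set a gene, the same in both tissues, and every panel spanning 3.4 log2 units. Points are arrays and lines are means of 3, liver and kidney having been processed separately; Gclc in liver lies at 13.29 to 13.32 in Se deficiency and at 12.77 to 13.15 on the other diets.

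In mouse kidney all probe sets of Pgd and Gsr had a higher mean in Se deficiency than on the other diets, and none passed the test. The 4 Pgd probe sets differed by 0.14 to 0.26 between Se deficiency and 0.2 μg Se/g (adjusted p from 0.89 to 0.91) and by 0.28 to 0.36 between Se deficiency and 0.05 μg Se/g (adjusted p = 1). At the brightest one the Se-deficient levels were 9.76, 9.97 and 9.82, with 9.54, 9.37 and 9.56 at 0.05 μg Se/g and 9.77, 9.73 and 9.46 at 0.2 μg Se/g. Se deficiency was thus above 0.05 μg Se/g without overlap and overlapped 0.2 μg Se/g. Gsr differed from 0.2 μg Se/g by 0.28 (SE 0.16, adjusted p = 0.89) and 0.27 (SE 0.12, adjusted p = 0.89). Gclc differed by 0.17 (SE 0.13) and 0.00 (SE 0.16), Gss by −0.05 (SE 0.07) and 0.08 (SE 0.10), and Glrx by −0.03 (SE 0.12) and −0.04 (SE 0.11). The probe sets of Gclm disagreed, with −0.24 (SE 0.26) and 0.22 (SE 0.12), and the brighter one spread from 11.34 to 12.49 at 0.2 μg Se/g alone and differed by 0.03 without replicate 1 at 0.2 μg Se/g. Slc7a11 differed by 0.09 (SE 0.09) and 0.07 (SE 0.10). Of the 16 probe sets, 1, of Pgd, was higher than at 0.2 μg Se/g without overlap, against 4.41% of all probe sets. In limma 0 of 16 were called against 0.2 μg Se/g and 0 against 0.05 μg Se/g, where 0.00666% and 0.0111% of all probe sets were. An unadjusted p under 0.05 was found for 1 and 4 of the 16, against 5.42% and 1.81% of all probe sets.

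Between 0.05 and 0.2 μg Se/g the members differed little in either tissue. Changes lay between −0.17 and 0.16 in liver and between −0.21 and 0.10 in kidney, and 0 of 16 probe sets had even an unadjusted p under 0.05 in limma in liver or in kidney, against 1.95% and 2.91% of all, and 0% of all probe sets were called. The change with Se deficiency in liver minus that in kidney was tested directly, and 0 of 16 probe sets passed, with 0.00222% of all probe sets called. Same-numbered liver and kidney arrays deviated together in 3 of 3 pairs at 0.05 μg Se/g (r = 0.212 to 0.249) and at 0.2 μg Se/g (0.116 to 0.241), and in 0 of 3 in Se deficiency (−0.114 to 0.031). The study's methods give 3 mice a diet and RNA of both tissues from 3 a diet, so the tissues would share mice. They do not say which arrays share a mouse, and the fit above treated all arrays as separate. With the number within a diet as a random block 0 of 16 passed as well. An unadjusted p under 0.05 was found for 5.79% of all probe sets and for 2 member probe sets, the dimmer probe set of Gclc, whose change was 0.51 larger in liver (SE 0.19, adjusted p = 0.83), and a Gss probe set, whose change was 0.27 larger in liver (SE 0.10, adjusted p = 0.83). For the level itself, Gss stood apart between the tissues, where Se-adequate liver had 8.93 to 9.05 and Se-adequate kidney 11.11 to 11.49 for the same probe set. These arrays were processed separately by tissue, and that difference was not tested.

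**Figure D4:**
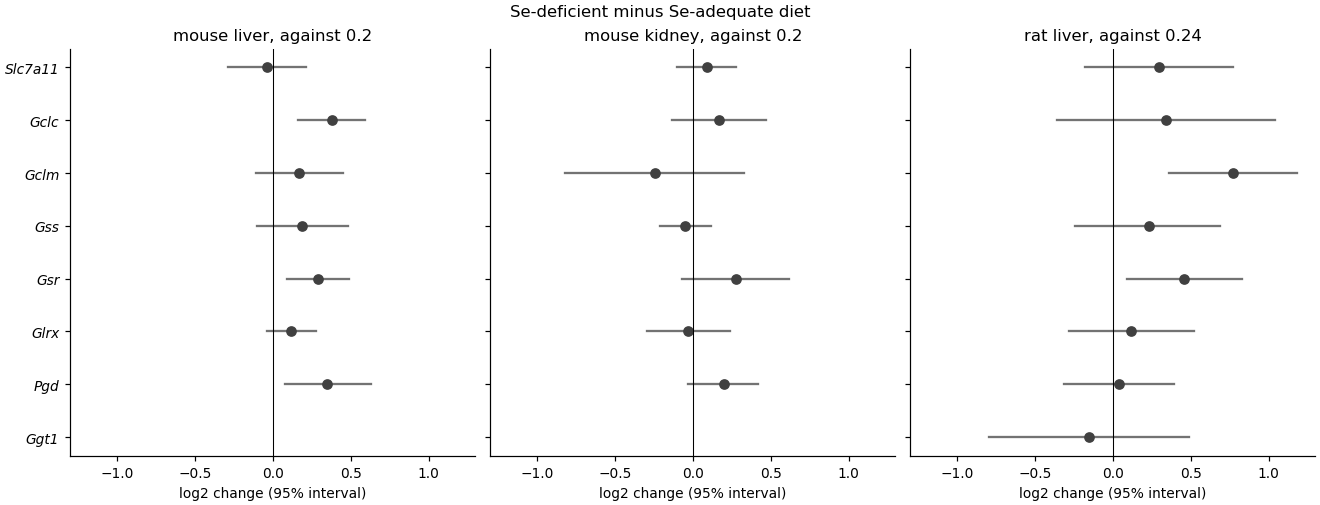
Change in log2 level (x axis) from the Se-adequate diet (0.2 μg Se/g in mice, 0.24 μg Se/g in rats) to Se deficiency, with its 95% interval from limma, for the member genes (y axis) in 3 tissues, n = 3 arrays a diet. No change was called; Gclm in rat liver has the largest value, 0.77, and Ggt1 has no probe set for the mouse.

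Genes around the members were taken from 4 lists: cystine and cysteine supply, glutathione breakdown, glutaredoxins with thioredoxins and glyoxalases, and the pentose phosphate pathway with other NADPH sources. At 5 against 0.24 μg Se/g 1 of their 33 genes on the rat array was called higher and 1 lower, where 2.82% of all probe sets were called. Cbs, cystathionine β-synthase, which starts the route from homocysteine to cysteine, was at 11.13 to 11.44 at 5 μg Se/g and 12.05 to 12.15 at 0.24 μg Se/g, without overlap, and fell by 0.81 (SE 0.12, adjusted p = 0.0041). Dpep1, a membrane dipeptidase that splits the cysteinylglycine left by Ggt1, was at 7.09 to 7.37 against 6.82 to 6.87 and rose by 0.41 (SE 0.09, adjusted p = 0.042). Both were also called against Se deficiency and against 2 μg Se/g, Cbs at −0.70 (adjusted p = 0.01) and −0.79 (adjusted p = 0.0086) and Dpep1 at 0.57 (adjusted p = 0.0089) and 0.40 (adjusted p = 0.043). Slc3a2, the heavy chain that pairs with Slc7a11, was at 11.23 to 11.89 at 5 μg Se/g and 10.90 to 11.11 at 0.24 μg Se/g, a change of 0.43 that did not pass (SE 0.16, adjusted p = 0.21). Idh2, a mitochondrial NADPH source, changed by 0.41 (SE 0.14, adjusted p = 0.17), and Ggt7, a relative of Ggt1, by −0.31 (SE 0.08, adjusted p = 0.072).

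**Figure D5:**
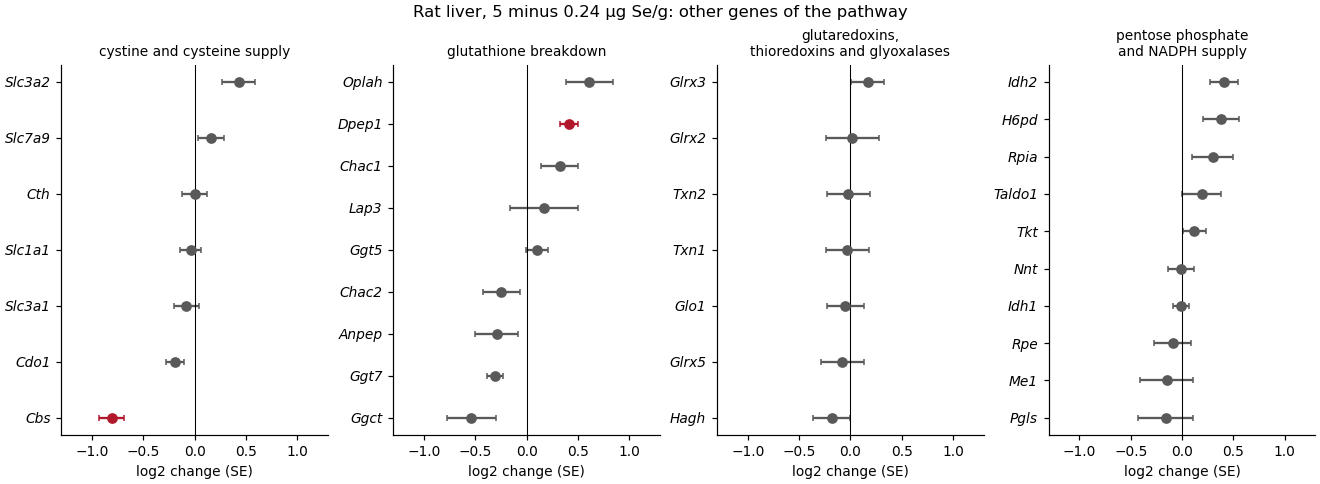
Change in log2 level (x axis) from 0.24 to 5 μg Se/g in rat liver, with its SE, for the 33 other genes of the pathway (y axis), in 4 lists, n = 3 arrays a diet. Red marks the called genes, Cbs at −0.81 and Dpep1 at 0.41.

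By list, the median change at 5 μg Se/g was −0.04 over 7 genes of cystine and cysteine supply, 0.10 over 9 of glutathione breakdown, −0.03 over 7 glutaredoxins, thioredoxins and glyoxalases, and 0.06 over 10 of NADPH supply. In the mouse none of the 34 genes measured there was called in any comparison. In Se-deficient mouse liver the 10 NADPH genes all had a higher mean than at 0.2 μg Se/g, by a median of 0.08, with 1 at an unadjusted p under 0.05 (4.63% of all probe sets), and the largest were Tkt, a transketolase (0.22, SE 0.10, adjusted p = 0.93), and Nnt, a mitochondrial transhydrogenase (0.20, SE 0.11, adjusted p = 0.93). Against 0.05 μg Se/g 9 of the 10 had a higher mean, by a median of 0.20, and 4 had an unadjusted p under 0.05 (8.76% of all), among them Nnt (0.38, SE 0.11, adjusted p = 0.47), Tkt (0.37, SE 0.10, adjusted p = 0.44) and Taldo1, transaldolase (0.26, SE 0.09, adjusted p = 0.54). In Se-deficient rat liver 0 of 33 genes were called in limma and 4 had an unadjusted p under 0.05 (3.4% of all), including Idh2 (0.50, SE 0.14, adjusted p = 1) and Chac1, which degrades glutathione in the cytosol (0.50, SE 0.18, adjusted p = 1). At 2 μg Se/g 0 of 33 were called in limma and 6 had an unadjusted p under 0.05, where 15.3% of all probe sets had, with Ggct, a γ-glutamylcyclotransferase, at −0.70 (SE 0.24, adjusted p = 0.32).

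The genes whose levels ran most like Gclc and Slc7a11 over the arrays are given as a description. Over the 9 mouse liver arrays Gclc was most like Rnpc3 (Pearson r = 0.968), Sephs2 and Gstm6 (both 0.942), Hnrnph2 (0.934) and Cnpy4 (0.933) among 18192 genes, and among the members Gsr (0.839) and Gclm (0.780) came closest. In mouse kidney the genes most like Gclc were Ccser2 (0.901), Rab3ip (0.895), Elp2, Fbxl5 and Abhd10 (0.889 each), with Pgd (0.735) closest among the members. Over the 12 arrays of the rat study with 5 μg Se/g these were Dhcr7 (0.942), Slc35e3 (0.917), Entpd5 (0.901), Ppm1a (0.864) and Wars2 (0.860), with Gsr (0.802) closest among the members. Slc7a11 was most like Star (0.972), Esm1 (0.971), Bhlhe22 (0.966), Rab31 (0.959) and Loxl1 (0.954), with Ggt1 (0.648) and Gss (0.466) closest among the members and r between −0.24 and 0.14 for the others. The 3 arrays at 5 μg Se/g lie apart from the rest for Slc7a11, so that its r values rest mainly on that gap. All these points share arrays, diets and array processing.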

How the data were processed

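Liver and kidney RNA of 18 mouse samples and liver RNA of 18 rat samples was hybridized to whole-genome Affymetrix arrays of the matching species. The authors deposited log2 expression values per probe set. The study's methods name robust multichip averaging, run separately for each study and mouse tissue, while the submitters' processing notes name GCRMA. The files do not settle which. Limma on the deposited values, with all rat arrays in one fit, gave 1193 calls at 5 against 0.24 μg Se/g. The study reports the same number from values it names robust multichip averages. Both methods correct the background and set the arrays to one distribution, so low signals, such as those of Slc7a11, can be compressed. Symbols came from the platform annotation, which gives 1 symbol for 34945 of 45037 mouse and 20826 of 31042 rat probe sets, several for 932 and 436 and none for 9160 and 9780. Array controls, 64 and 57, were left out, and so were 4 rat probe sets that carry a member symbol with others.

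Comparisons used limma 3.58.1 in R 4.3.3 (lmFit with 1 coefficient a diet, contrasts, eBayes), with Benjamini-Hochberg adjustment over all probe sets and no filter on low signal. The 9 arrays of a mouse tissue, the 12 rat arrays of Se deficiency, 0.24, 2 and 5 μg Se/g and the 6 fed 0.08 μg Se/g or 0.8 μg Se/g entered a fit each, and the 18 mouse arrays entered the fit of liver minus kidney. The assignment of rats to studies comes from the study's methods. The labels do not say more than that arrays of a group are separate samples, and the small number of arrays limits the precision. The script was tested on simulated data. A member with several probe sets is described by the brightest one and by the values, ranges or counts of the others. Of the other pathway genes those called are named, and up to 3 with the smallest p in each comparison. The members and lists were chosen with earlier results of these data known.

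Alternatives were fits with the 2 diets alone, with all arrays of a species, with trend and robust options or with array weights, leaving out probe sets below the median, quantile normalization, a replicate block, the mean of a symbol's probe sets and each array left out. Replicate numbers were taken to pair arrays where the deviations of all 3 same-numbered pairs correlated over 0.1, which held for Se-deficient against 0.2 μg Se/g in mouse liver (r = 0.462, 0.105 and 0.319) and in no other comparison of diets. Between the tissues it held at 0.05 and 0.2 μg Se/g, not in Se deficiency. Leaving out replicate 1 at 2 μg Se/g from fits of comparisons without that diet was added after seeing the data.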

Additional observations from a re-analysis of the deposited data

How the results depend on the processing

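Counts of members are of probe sets. Slc7a11 at 5 μg Se/g kept its direction under every alternative that could be run and was called in 14 of 14 against 0.24 μg Se/g (change 2.31 to 2.76), in 14 of 14 against Se deficiency (2.01 to 2.47) and in 12 of 13 against 2 μg Se/g (2.08 to 2.53). The exception was the fit with the 2 diets alone, in which 0 members were called between 5 and 2 μg Se/g and the calls over all probe sets went from 1037 to 9. Leaving out probe sets below the median left 0 members called in the 3 comparisons with 5 μg Se/g, since it removes Slc7a11 itself. With all rat arrays in one fit 2 members were called at 5 against 0.24 μg Se/g, 2 against Se deficiency and 3 against 2 μg Se/g, and with array weights 2, 2 and 5. Array weights also called 2 at 2 against 0.24 μg Se/g, Glrx among them, with 13048 calls over all probe sets in place of 1, and their estimation stopped before converging in some fits. Leaving out 1 array gave 1 to 2 members at 5 against 0.24 μg Se/g, 1 to 2 against Se deficiency and 1 to 3 against 2 μg Se/g. The higher counts came without replicate 3 at 5 μg Se/g, which adds Ggt1, and, for the last, without replicate 3 at 2 μg Se/g, which adds Ggt1 and Gss. The cause was not tested. Over all probe sets the alternatives gave 351 to 3184 calls for 5 against 0.24 μg Se/g (875 in the fit used above). For 5 μg Se/g they gave 305 to 2539 against Se deficiency (718) and 9 to 14962 against 2 μg Se/g (1037). For 2 against 0.24 μg Se/g they gave 0 to 13048 (1, and 5800 without replicate 3 at 2 μg Se/g). Se-deficient against 0.24 μg Se/g had 1 to 22 (1), and 0.8 against 0.08 μg Se/g had 0 to 39 (0). Se deficiency in mouse liver had 6 to 22 against 0.2 μg Se/g (10) and 8 to 49 against 0.05 μg Se/g (17). In kidney these were 1 to 6 and 0 to 6 (3 and 5), and for liver minus kidney 1 to 5 (1). The study itself reports 1193 changed transcripts at 5 and 6 at 2 against 0.24 μg Se/g. All rat arrays in one fit gave the same numbers. With the replicate block 16 probe sets were called for Se-deficient against 0.2 μg Se/g in mouse liver and 0 were members, and 1 member was called in each comparison with 5 μg Se/g. The block changed no other member count, that for liver minus kidney included. With only 3 arrays a diet, SEs were 0.16 to 0.32 for the brightest probe sets of the members at 5 against 0.24 μg Se/g. Changes of the size of 1 SE could not be told from 0. Larger ones also stayed uncalled, such as that of 0.96 for Ggt1 (limma adjusted p = 0.12).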
